A study of Drosophila melanogaster with 6 samples.

Results

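Regions held by both Jarid2 and Polycomblike (Pcl) on the large autosome arms of Drosophila melanogaster are described here. Peaks of 4 lists, Jarid2 A and B and Pcl A and B, were merged where they overlapped or touched, and a merged region on 2L, 2R, 3L or 3R was kept when at least 1 Jarid2 list and at least 1 Pcl list had a peak in it. The regions were therefore chosen by the peak calls themselves, and 210 of the 5682 merged regions on these arms (7007 on all sequences) were held by both proteins, or 3.70%. They made up 13.3% of the 1583 regions with a Jarid2 peak and 4.87% of the 4309 regions with a Pcl peak. Each library came from whole embryos of 12 to 24 h that expressed either BioTAP-Jarid2 or BioTAP-Pcl, where BioTAP is an affinity tag purified in successive steps. All libraries, inputs included, came from chromatin fixed with 3% formaldehyde for 30 min. Neither the strain nor the promoter that drives the tagged protein is given in the sources used here. There were 2 immunoprecipitated libraries for each protein and 1 input for each, and the inputs had no peak list. Since embryos were taken whole, sites bound by both proteins in the same cells and sites bound in different cells cannot be told apart. The names of the lists give one lane number for Jarid2 and another for Pcl, and an effect of the lane cannot be told apart from one of the protein.

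Both proteins are accessory subunits of Polycomb repressive complex 2, the enzyme that methylates histone H3 at genes kept silent through development. A core of Enhancer of zeste, Suppressor of zeste 12, Extra sex combs and a histone chaperone is shared, and accessory subunits define variant forms of it. Pcl belongs to one variant and Jarid2, with the zinc finger protein Jing, to another. In flies the complex is recruited to Polycomb response elements, short DNA elements that bind several sequence-specific factors, and its methyl mark spreads from there into wide domains. Coordinates are 1-based on dm3, the build named in the submitters' processing notes. The gene table used here is of another build, so no genes are named.

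The number of regions rested more on Jarid2 A, the longer list of its protein, than on any other list. Leaving out Jarid2 A gave 125 regions, against 190 without Pcl A, 202 without Jarid2 B and 205 without Pcl B. Jarid2 A had a peak in 202 of the 210 regions and Jarid2 B in 124, while Pcl A had one in 203 and Pcl B in 164. All 4 lists called 87 regions (41.4%), exactly 3 lists called 99 and exactly 2 lists called 24. The most frequent incomplete set was Jarid2 A with both Pcl lists, in 65 regions. In 86 regions, Jarid2 was called in list A and not in B, against 8 with the reverse. Both Jarid2 lists called 116 of the regions, or 55.2%, against 46.7% of all Jarid2 regions on these arms. Both Pcl lists called 157, or 74.8%, against 36.0% of all Pcl regions. These shares describe regions chosen on the same calls and were not tested, and wide regions can collect peaks of more lists.

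Regions called in more lists were wider and had a higher fold in Pcl. The median width was 284.5 bp in regions of 2 lists, 1045 bp in those of 3 and 2545 bp in those of 4. The strongest peak of a region is used here as its fold, the enrichment that the authors' caller wrote for each peak. In Pcl A the median fold was 2.66, 5.24 and 6.23 in regions of 2, 3 and 4 lists. The corresponding Jarid2 A medians were 3.08, 2.93 and 3.53. The Jarid2 values thus lay within a narrow range while the Pcl A values went up with each step.

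Members were spread over the 4 arms in similar numbers, with 58 on 2L, 55 on 2R, 45 on 3L and 52 on 3R. Relative to the span of each arm this was 2.59 per Mb on 2L, 2.60 on 2R, 1.90 on 3L and 1.86 on 3R. On 3R the Pcl lists were longest, and members made up 3.22% of the Pcl regions there against 7.55% on 2R. Called in all 4 lists were 28 members on 2R and 13 on 3R. Without its window from 8.8 to 9.0 Mb, 2R had 37 members, the fewest of the 4 arms, and 13 in all 4 lists. The number per Mb and the share of Pcl regions given for 2R include that window. The median distance from a member to the next was 25.6 kb, and 86 of the 210 (41.0%) had another within 10 kb. Members lay in 116 of the 478 windows of 200 kb on these arms, and 20 windows held 3 or more.

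A member was most often a wide Pcl interval with a much shorter Jarid2 interval inside it. The median width was 1618.5 bp, with quartiles of 497 and 3395 bp and a range of 177 to 11571 bp. Without Pcl A, the list with the wider peaks in members, the median was 1035 bp. Jarid2 peaks covered a median of 374.5 bp of a region and Pcl peaks 1604.5 bp, and the Pcl part was longer in 169 of the 210 regions. In 123 regions every base under Jarid2 was also under Pcl, and in 14 every base under Pcl was also under Jarid2. Over all members together, Jarid2 lay over 24.7% of the Pcl length and Pcl over 90.4% of the Jarid2 length. Jarid2-only and Pcl-only regions on these arms had median widths of 246 and 301 bp, and a wide region is met by a peak of another list more easily than a narrow one.

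Several peaks of a list often stood in 1 region. Jarid2 A had 2 or more peaks in 61 regions, up to 10, with a median of 688 bp between neighbouring summits, and Jarid2 B in 38 regions, with a median of 711 bp. Pcl B split 102 regions into 2 or more peaks, up to 13, with a median of 800 bp between summits. Pcl A did so in 28 regions, up to 3 peaks, where the median was 1916 bp. Pcl A thus joined stretches that Pcl B broke up, which is why positions are given below for each Pcl list separately.

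**Figure D1:**
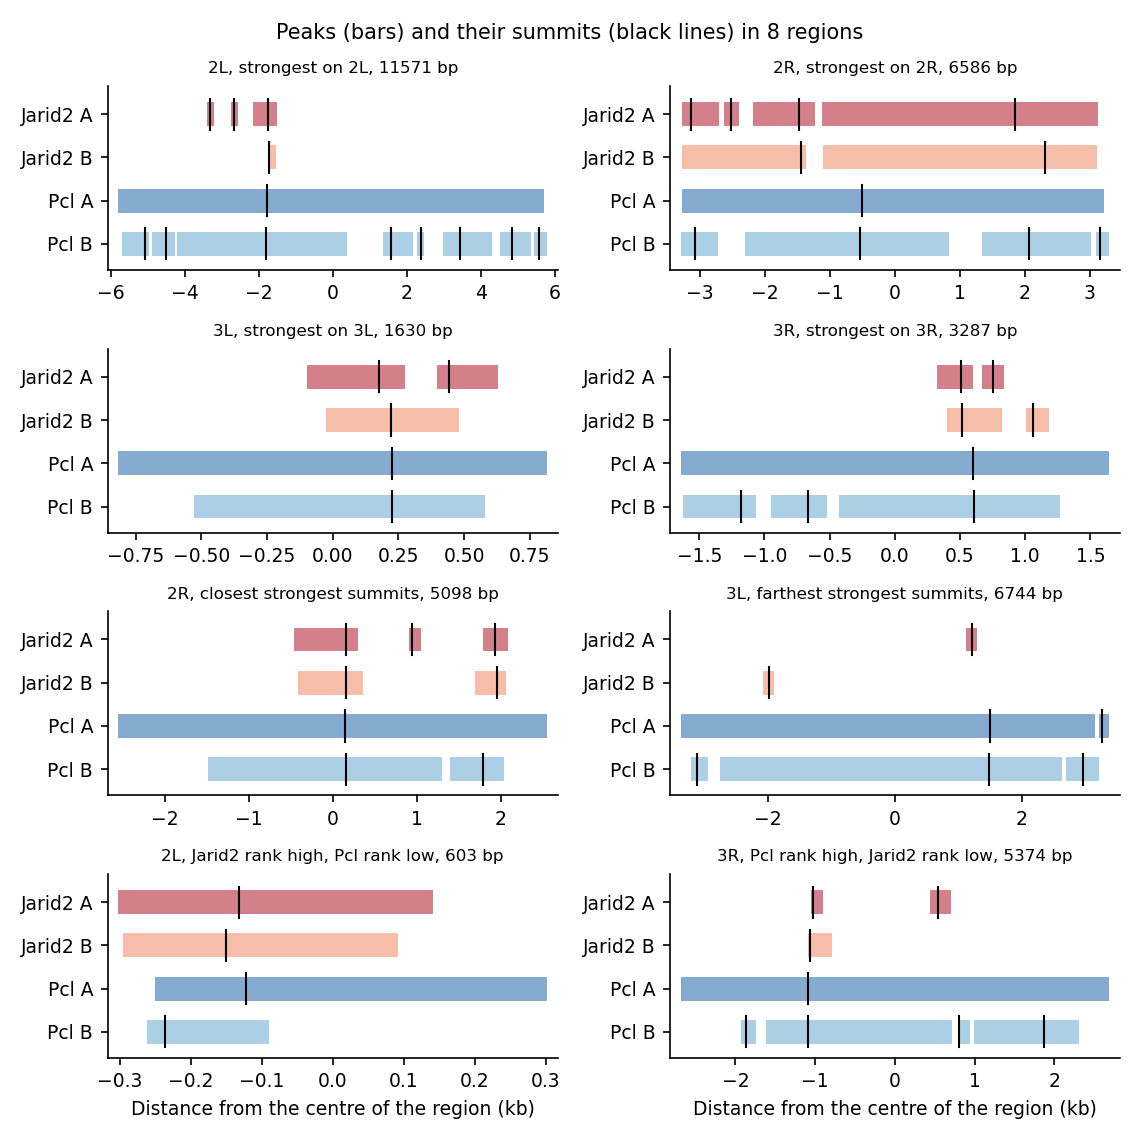
Peaks (bars) and their summits (black lines) of the 4 lists in 8 regions, with the distance from the centre of each region in kb on the horizontal axis and 1 list per row. Jarid2 bars are short stretches of a longer Pcl bar in most panels, and on 2R from 8924331 to 8930916 they cover 95.4% of the Pcl length.

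The strongest members on each arm show the range of these arrangements. They were ranked by the mean rank of fold over the 4 lists among the 87 regions with all 4. Distances given for them are between the strongest summit of each list unless nearest summits are named, and weaker summits of the same region can lie closer. First on 2L was the widest of the 210 members, from 3536193 to 3547763, where fold was 4.47 and 2.44 for the A and B lists of Jarid2, and 16.5 and 24.3 for those of Pcl. Its strongest summits lay within 88 bp of each other in every pair of lists, with Jarid2 A at base 3540220 and Pcl A at base 3540212, although Pcl covered all 11571 bp. Jarid2 covered 8.98% of that Pcl length. The strongest Jarid2 peak was thus a short interval at the maximum of a broad Pcl domain.

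The next on 2L, from 3605979 to 3607453, had 1 peak in each list, and its folds, ordered likewise, were 4.43, 3.51, 11.2 and 10.7. Here the Jarid2 summits stood 306 to 366 bp to the lower-coordinate side of the Pcl summits, while the summits of each protein's replicates were 30 bp apart. The offset exceeded the distance between replicates of either protein. The region from 3824566 to 3826440 on 2L had folds of 4.02, 2.82, 14.2 and 18.1 and summit distances of 77 to 121 bp between the proteins, with the Pcl summits at the same base.

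On 2R, the region from 18127021 to 18132118 had folds of 3.50, 4.83, 12.7 and 16.4, and all 4 strongest summits lay within 14 bp, between 18129720 and 18129734. Among the members in all 4 lists it had the smallest distance between the proteins, a mean of 7 bp over the 4 pairs of lists. The region from 8924331 to 8930916 had folds of 9.60, 3.60, 15.7 and 15.6, and there the strongest Jarid2 summits stood 2355 to 2838 bp from the strongest Pcl summits. The nearest summits in that region were 970 and 941 bp from Pcl A (Jarid2 A, then B) and 65 and 246 bp from Pcl B. The last of the 3 on 2R was the region from 3935287 to 3940238, with folds of 3.87, 3.96, 14.3 and 11.2 and distances of 178 to 587 bp. The strongest summits of the Jarid2 lists themselves differed by 765 bp there, so the distance between strongest summits is not resolved beyond the replicate spread. The nearest summits in that region were 173 and 157 bp from Pcl A (Jarid2 A, then B) and 1 and 11 bp from Pcl B. Between the Jarid2 lists the nearest summits were 10 bp apart.

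On 3L, the region from 431706 to 433335 had folds of 3.48, 3.52, 12.6 and 15.7. Jarid2 B lay 3 and 1 bp from the Pcl summits and Jarid2 A 49 and 47 bp. The region from 3623691 to 3626887 had folds of 3.97, 3.23, 10.4 and 10.9, with the strongest summits of Jarid2 A and B 16 bp apart and both 1399 to 1432 bp from the strongest Pcl summits. A weaker Jarid2 A summit there lay 54 bp from Pcl A and 71 bp from Pcl B, and the nearest Jarid2 B summit lay 1415 and 205 bp away. The strongest summits thus nearly coincided in the first of these regions and stood apart in the second. In the region from 14122691 to 14127646, with folds of 3.60, 2.37, 16.5 and 20.4, the Jarid2 lists disagreed, Jarid2 B standing 2 and 3 bp from Pcl and Jarid2 A 1367 bp away from Jarid2 B.

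On 3R, the region from 2506829 to 2510115 had folds of 4.54, 4.33, 10.6 and 17.1, with Jarid2 summits 3 bp apart and 88 to 97 bp from the Pcl summits. In the region from 19120091 to 19122663, with folds of 4.10, 2.80, 10.3 and 9.15, the proteins were 19 to 34 bp apart. In the region from 13946423 to 13948314, with folds of 5.23, 3.68, 5.85 and 5.31, they were 344 to 378 bp apart while replicates were 16 and 18 bp apart. Offsets between the strongest summits of the proteins that exceeded the replicate distance were therefore seen on each of the 4 arms.

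Across the members, the nearest Jarid2 and Pcl summits stood farther apart, in the median, than the nearest summits of replicates. The distance between the nearest pair of Jarid2 and Pcl summits in a region had a median of 129 bp between Jarid2 A and Pcl A, 104 bp between Jarid2 A and Pcl B, 122 bp between Jarid2 B and Pcl A and 130 bp between Jarid2 B and Pcl B. The mean of these medians was 121 ± 12.0 bp (SD over the 4 pairs of lists, which share libraries). Between replicates the median was 24.5 bp for Jarid2 (116 regions) and 29 bp for Pcl (157 regions). All 4 values between proteins thus lay above both values between replicates. With 2 libraries for each protein, an exact permutation test over libraries cannot give a p below 0.333, and none was made.

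Summits within 50 bp were found in 24.0% to 28.3% of regions between the proteins, against 70.7% between the Jarid2 lists and 64.3% between the Pcl lists. Summits within 500 bp were found in 91.7% to 94.3% of regions between the proteins. A member needed peaks of both proteins that overlapped or touched, and 54 of the 210 were under 500 bp wide. The share within 500 bp thus follows in part from the rule. Within 50 bp, the share was lower between proteins than between replicates in each pair. Taking the strongest summit of each list in place of the nearest gave medians of 168 to 231 bp between proteins, 45.5 bp between Jarid2 replicates and 32 bp between Pcl replicates. In the 11 regions with exactly 1 peak in each list, where the choice of summit cannot matter, the medians were 97 to 148 bp between proteins and 23 and 46 bp between replicates.

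**Figure D2:**
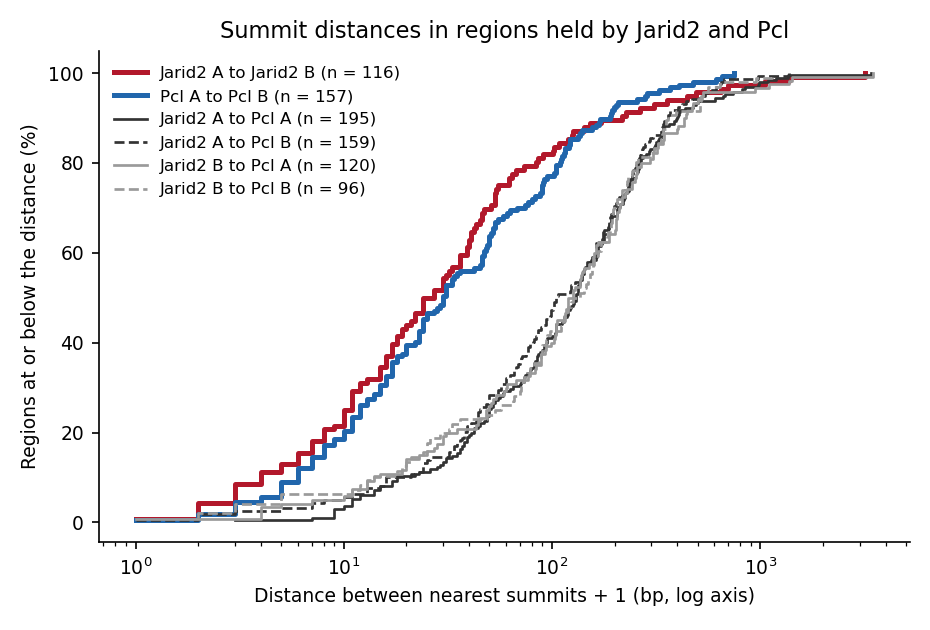
Cumulative share of regions (%) against the distance between the nearest summits of 2 lists plus 1 bp (log axis), for each pair of lists. The curves for Jarid2 replicates (median 24.5 bp) and Pcl replicates (29 bp) lie to the left of the 4 curves between proteins (104 to 130 bp).

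The side of the offset was partly common to the replicates. In the 11 regions with 1 peak in each list, Jarid2 A stood on the same side of Pcl A as Jarid2 B of Pcl B in 9. Over the 87 regions in all 4 lists, using the strongest summits, the side was common in 59 (67.8%), and the signed offsets had a Spearman rho of 0.36 (n = 87, 4 different libraries). Where the offset exceeded 100 bp in both, the side was common in 39 of 55. Jarid2 stood on the lower-coordinate side in 41 of the 87 regions in A and 47 in B, so neither genomic direction prevailed in that set. In the 11 regions with 1 peak in each list, Jarid2 stood on the lower-coordinate side in both replicates in 8. It stood on the higher-coordinate side in both in 1. Without gene names the direction relative to transcription was not analysed here.

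At the extremes, 2 more regions had strong summits nearly at 1 base, both in a stretch of 2R near 8.9 Mb. The region on 2R from 8923748 to 8924079 was only 332 bp wide, had folds of 4.86, 4.41, 5.0 and 4.66 and distances of 9 to 13 bp. The region from 8891536 to 8892885 had folds of 3.90, 2.94, 4.18 and 9.83 and distances of 10 to 49 bp. To find the regions with the largest distances, the peaks of a protein's replicates were joined and the joined peak with the highest mean fold was taken. By that measure 3L from 21468123 to 21474866 came first with 3469 bp, and the strongest summits of single lists were 270 to 3475 bp apart. Jarid2 B stood 3475 bp from Pcl A and Jarid2 A only 282 bp, each with a single peak, of fold 2.93 and 2.70, and these were 3193 bp from each other. Next by that measure were 2R from 8904341 to 8913547 (3146 bp, single lists 445 to 7570 bp) and from 8893098 to 8896878 (3122 bp, single lists 163 to 3224 bp). The strongest Pcl A and Pcl B summits were themselves 5499 and 2875 bp apart there. In the region from 8904341 to 8913547 the strongest Jarid2 A and Jarid2 B summits were also 2516 bp apart. In each of these 3 regions the replicates of at least 1 protein thus had their strongest summits in different places.

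Within a Pcl peak, Jarid2 summits were found at all positions from the centre to near the edge, less often in the outermost part. Position was measured from 0 at the centre of the Pcl peak to 1 at its edge. Of the overlapping pairs of peaks, the Jarid2 summit lay inside the Pcl peak in 92.0% (Jarid2 A with Pcl A), 80.2% (Jarid2 A with Pcl B), 90.8% (Jarid2 B with Pcl A) and 78.6% (Jarid2 B with Pcl B). The median position in these pairs was 0.417, 0.470, 0.469 and 0.451, and an even spread would give 0.5. The mean was 0.452 ± 0.0244 (SD over the 4 pairs). Cut into 3 bands of equal length, the central band held 33.5% to 36.5% of the Jarid2 summits, the intermediate band 38.5% to 42.4% and the outer band 22.7% to 25.2%, where an even spread gives 33.3% each. A Jarid2 summit close to a Pcl edge belongs to a peak that crosses that edge, and the part of the peak widths in these shares was not tested.

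The summit of each Pcl peak was more central in that peak. The summit of a Pcl A peak had a median position of 0.315 within that peak and that of a Pcl B peak 0.298, with 54.3% and 54.1% in the central band. Pcl A summits within Pcl B peaks had a median of 0.283 (n = 161). Pcl B summits within Pcl A peaks had a median of 0.515 (n = 434), less central than the Jarid2 summits in Pcl A peaks, and Pcl B often had several peaks in a wide Pcl A peak. The Jarid2 medians thus lay between those of each Pcl peak's own summit and the value of an even spread. Over 4 width classes of Pcl peak in the 4 pairs of lists, the median ranged from 0.304 (n = 29) to 0.628 (n = 12), with no order by width common to the pairs. In Pcl A peaks of 2 kb or more it was 0.425 for Jarid2 A (n = 167) and 0.410 for Jarid2 B (n = 98). In those peaks the Jarid2 summit stood a median of 346 and 366 bp from the Pcl A summit.

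**Figure D3:**
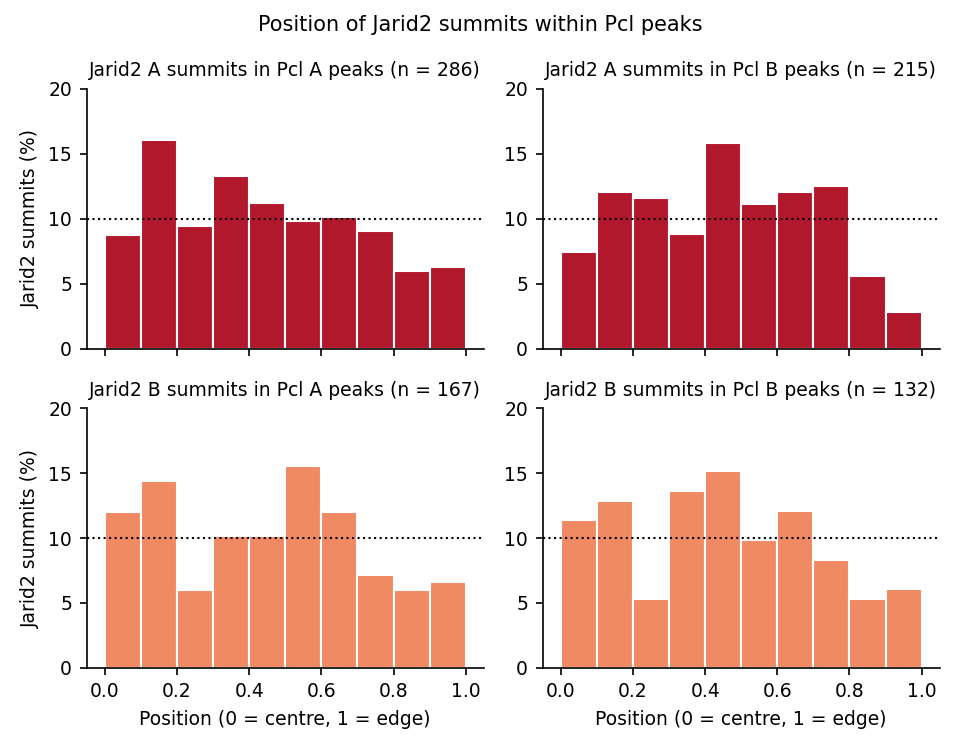
Share of Jarid2 summits (%) by position within the Pcl peak that contains them (0 at the centre, 1 at the edge), 1 panel for each pair of lists, with a dotted line at an even spread. The bars drop beyond 0.7 or 0.8 in the 4 panels, and the outer band held 22.7% to 25.2% of the summits.

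Whole Jarid2 peaks lay inside a Pcl peak in 73.0% and 67.4% of the overlapping pairs with Pcl A (Jarid2 A and B) and in 50.4% and 43.5% with Pcl B. They crossed a Pcl edge in 24.1% to 44.0% and contained the Pcl peak in 2.89% to 12.5%. The shorter peaks of Pcl B go with more crossings. In the reverse view, the Pcl summit lay under the Jarid2 peak in 33.4% to 45.8% of the pairs.

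The median fold of Jarid2 peaks was nearly the same in members and elsewhere, while that of Pcl peaks was higher in members. The median fold of Jarid2 A peaks was 3.04 in members and 3.02 at its other peaks on these arms, and that of Jarid2 B 3.00 and 2.97. For Pcl A the medians were 4.51 in members and 3.05 elsewhere, and for Pcl B 4.53 and 4.05. Since the calls chose the members these differences are given with no test. Of the 100 strongest peaks of each list on these arms, members held 19 and 22 for Jarid2 (A, then B) and 26 and 36 for Pcl. For the Jarid2 lists that is near the share of all their peaks in members, 19.3% and 20.9%. For the Pcl lists it exceeds that share, 5.71% and 14.6%.

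The strength of one protein did not follow that of the other within the members. The strongest fold per region ran from 1.84 over a median of 3.20 to 9.60 in Jarid2 A and from 2.06 over 3.12 to 6.80 in Jarid2 B. For Pcl A it ran from 1.76 over 5.24 to 20.2, and for Pcl B from 2.45 over 7.81 to 24.3. Between Pcl A and Pcl B the Spearman rho of fold was 0.88 (n = 157 regions), and between Jarid2 A and Jarid2 B it was 0.40 (n = 116). Between the proteins it was -0.23 for Jarid2 A with Pcl A (n = 195), -0.27 for Jarid2 A with Pcl B (n = 159), -0.22 for Jarid2 B with Pcl A (n = 120) and -0.28 for Jarid2 B with Pcl B (n = 96). Without the densest window of 2R, described below, the values between proteins were -0.24, -0.27, -0.25 and -0.28. Regions share libraries and a threshold, so these values are descriptions. Pcl fold also went with width (rho 0.79 over the 195 regions), and Jarid2 A fold did not (rho -0.13).

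**Figure D4:**
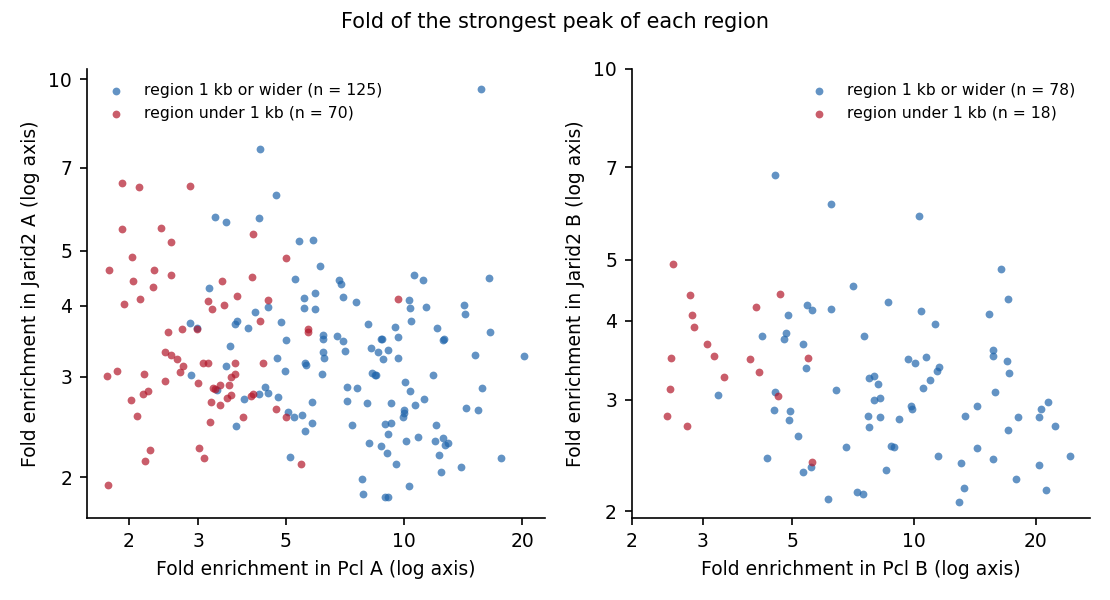
Fold enrichment of the strongest Jarid2 peak against that of the strongest Pcl peak of each region (log axes), for the A lists (left, 195 regions) and the B lists (right, 96 regions), blue for regions of 1 kb or wider and red for narrower ones. Wide regions reach high Pcl folds, and Jarid2 folds stay mostly between 2 and 5 along the whole Pcl axis.

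The extremes of this contrast were named by rank among the 87 regions in all 4 lists. On 2L from 18733104 to 18733706, Jarid2 had a mean rank of 6 with folds of 5.35 and 4.91, and Pcl a mean rank of 78.5 with folds of 4.13 and 2.53. On 2R from 8842461 to 8846757, Jarid2 had a mean rank of 1.5, with folds of 7.54 and 6.80, and Pcl a mean rank of 71 with 4.31 and 4.53. The reverse was seen on 3R from 26588461 to 26593834, where Jarid2 folds were 2.28 and 2.16 (mean rank 82.5) and Pcl folds 12.7 and 21.3 (mean rank 6). On 3R from 20904389 to 20909697 the folds were 2.86 and 2.25 in Jarid2 and 15.8 and 17.9 in Pcl, with the proteins 8 to 75 bp apart. A strong Pcl peak and a weak Jarid2 peak thus stood at nearly the same base there. The widest members after the first, on 2L from 3831358 to 3841296 and on 3R from 8886040 to 8895424, were in 3 lists each, with no Jarid2 B peak and Jarid2 A folds of 3.27 and 3.38. In them Jarid2 lay over 2.90% and 1.64% of the Pcl length.

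Fragment numbers behind these folds were recovered from fold and p, taking fold as (count + 1) / (background + 1). In members the strongest point of a peak had a median of 35 fragments over a background of 10.8 in Jarid2 A, 64.5 over 14.4 in Pcl A and 19 over 3.58 in Pcl B. For Jarid2 B the median was 32.2 over 9.86 after the caller's scaling by 0.250, or 129 fragments. Counts of this size leave a fold uncertain by counting error alone, so the order of single regions near the middle of the range is not firm. At members the median background of Jarid2 was lower than at the other peaks of the list (10.8 against 13.2 in A, 9.86 against 12.0 in B). That of Pcl was higher (14.4 against 7.61 in A, 3.58 against 2.99 in B). The part of these backgrounds in the folds was not tested.

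Wide Pcl regions are met more often, so Jarid2 was also counted per length of Pcl peak. Over all Pcl peaks on these arms, members or not, there were 101 Jarid2 A summits per Mb inside Pcl A peaks and 14.6 per Mb outside. The values were 146 and 15.1 for Jarid2 A with Pcl B, 58.9 and 7.79 for Jarid2 B with Pcl A, and 89.6 and 8.05 for Jarid2 B with Pcl B. The ratio of inside to outside was 8.82 ± 1.93 (SD over the 4 pairs), with a range of 6.93 to 11.1, and 5.65 to 8.86 without the densest window of 2R. Per length, then, Jarid2 summits were denser inside Pcl peaks than outside in each pair of lists. No chance level was computed, and parts of the genome that cannot be mapped count as outside.

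The density had its highest value in the strongest Pcl peaks. Pcl peaks of each list were put in 5 groups of equal number by fold. In the highest group there were 131 Jarid2 A summits per Mb of Pcl A peak (exact Poisson 95% interval 114 to 150, counting error only), against 28.4 (11.4 to 58.6) in the next to lowest group. For Pcl B the values were 206 (174 to 242) and 58.7 (26.8 to 111). Jarid2 B had 74.8 (62.1 to 89.3) and 20.3 (6.60 to 47.4) in Pcl A, and 122 (98.2 to 151) and 45.7 (18.4 to 94.1) in Pcl B. The order was not continuous, since the lowest group stood above the next to lowest in each pair, at 92.0 (56.9 to 141) and 108 (61.8 to 176) for Jarid2 A in Pcl A and Pcl B. For Jarid2 B the lowest group was at 48.2 (24.1 to 86.2) and 81.1 (41.9 to 142). The intervals treat summits as independent counts, and no test between groups was made. Without the densest window of 2R the highest group had 103 and 178 per Mb (Pcl A, then Pcl B) for Jarid2 A and 55.7 and 100.4 for Jarid2 B. The lowest group then had 88.3 and 77.3 for Jarid2 A and 44.2 and 56.2 for Jarid2 B. In Pcl A the lowest group thus stood near the highest. In the highest group, 15.1% of Pcl A peaks and 17.2% of Pcl B peaks held a Jarid2 A summit. The share was at most 2.80% and 3.63%, respectively, in the lower groups. Peaks of the highest group were also wider. Their median width was 1214.5 bp (Pcl A) and 816 bp (Pcl B), against at most 398 and 321 bp in the lower groups. The part of width in these shares per peak was not tested.

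**Figure D5:**
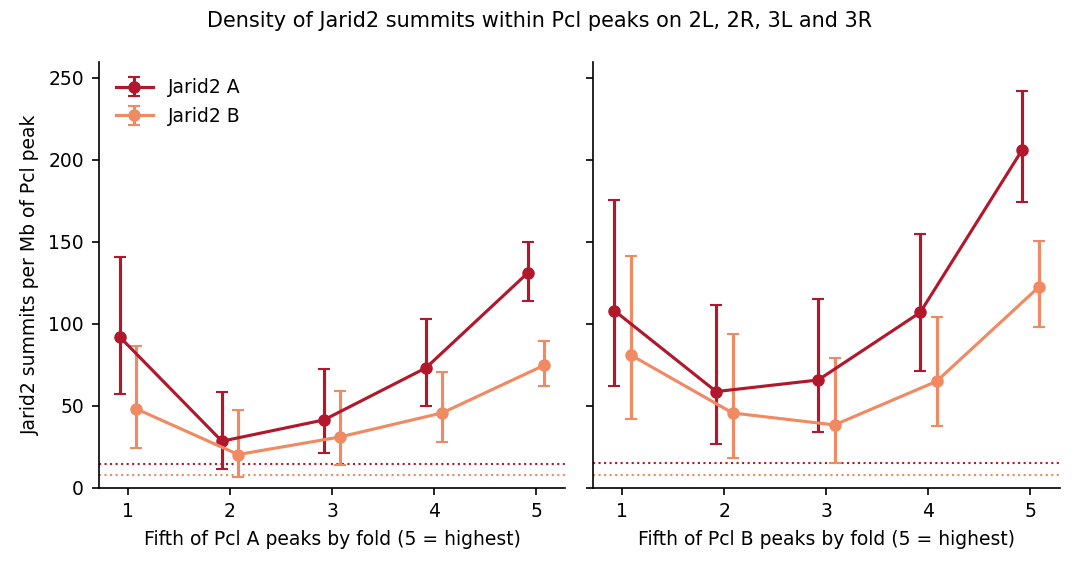
Jarid2 summits per Mb of Pcl peak in 5 groups of Pcl peaks by fold (1 lowest, 5 highest), for Pcl A (left) and Pcl B (right), with exact Poisson 95% intervals (counting error only) and dotted lines at the density outside Pcl peaks. The highest group stands at 131 and 206 per Mb for Jarid2 A and at 74.8 and 122 for Jarid2 B, and the lowest group stands above the next in each panel.

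Width and fold of Pcl were also read together in the 1550 regions with both Pcl lists. Jarid2 was present in 2.88% of those with a Pcl span under 0.5 kb, 3.73% from there to 1 kb, 10.8% from 1 to 2 kb, 25.6% from 2 to 4 kb and 42.2% at 4 kb or more. In the classes of 1 to 2 kb and 2 to 4 kb, the median Pcl B fold was higher where Jarid2 was present, 5.84 against 4.60 and 9.11 against 6.68. In the widest class it was lower where Jarid2 was present, 15.5 against 17.9, and so it was in Pcl A, 9.82 against 12.2. These medians were not tested.

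A single stretch of 2R stood apart among the members. The window from 8.8 to 9.0 Mb held 18 of the 210 members and 15 of the 87 in all 4 lists, while the next window, on 2L from 14.4 to 14.6 Mb, held 7. In that stretch of 2R Jarid2 lay over 68.0% of the Pcl length of the members, against 18.5% over the other 192 members. The widest Jarid2 peak there was 4237 bp in list A and 4890 bp in list B, against at most 1379 and 1240 bp in the other members. The median Jarid2 fold of its members was 4.06 (A) and 3.94 (B), against 3.08 and 3.08 in the other members. The median Pcl fold was 4.81 (A) and 6.23 (B), against 5.41 and 8.15. Jarid2 medians thus lay above those of the other members in both replicates, and Pcl medians below. The order was the same against the other 72 members in all 4 lists, where Jarid2 lay over 24.3% of the Pcl length. Median folds of those 72 were 3.47 and 2.96 in Jarid2 (A, then B) and 7.04 and 8.84 in Pcl. Without the window, the median distance between the proteins' nearest summits, averaged over the 4 pairs of lists, was 133 bp in place of 121 bp.

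The recovery of a summit in the other replicate was compared between peaks in members and elsewhere, with no test. A Jarid2 A summit within 100 bp existed for 64.3% of the 185 Jarid2 B peaks in members and for 85.8% of its 702 other peaks. A Jarid2 B summit within 100 bp existed for 37.8% of the 315 Jarid2 A peaks in members and 45.7% of the 1316 others. A Pcl A summit within 100 bp existed for 27.9% of the 462 Pcl B peaks in members and 31.0% of the others. In these 3 lists the shares in members were thus the lower ones. For Pcl A the order was the opposite, with a Pcl B summit within 100 bp for 54.7% of its 234 peaks in members and 21.7% of the others. Jarid2 regions needed a peak from only a single Jarid2 list, in members and elsewhere alike. The part of the rule in these shares was not tested. Peak numbers differed, with 234 Pcl A and 462 Pcl B peaks in members against 3866 and 2703 elsewhere. Their part in the shares was not tested.

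At the limit of the rule, the member with the least contact was on 3R from 6361438 to 6362247, where a Jarid2 A peak of fold 2.64 and a Pcl A peak of fold 4.74 only touched. Next came 2R from 17384502 to 17384913, with an overlap of 14 bp between Jarid2 B (2.96) and Pcl A (2.46). Just outside were a Jarid2 A and a Pcl B peak on 3R from 21341555 to 21342273, 2 bp apart with folds of 4.71 and 2.88, and another such pair on 2L from 15425956 to 15426421, 13 bp apart with folds of 2.90 and 2.88. Few members were this marginal: the longest overlap was under 50 bp in 5 of the 210, with a median of 239.5 bp. Of the 2018 Jarid2 peaks outside members, 19 lay within 100 bp of a Pcl peak and 131 within 1 kb.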

How the data were processed

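Every immunoprecipitated library had its own list of peaks, which the authors deposited in the 10-column narrowPeak layout, so replicates were not pooled. Per the submitters' processing notes, the tools included Trimmomatic 0.36, Bowtie 1.2.2, deepTools 3.0.2 and MACS2 2.1.1 with build dm3. Settings and the control are not given in the sources used here. In the deposited lists fold enrichment is a linear ratio, −log10 p and −log10 q are the caller's, and the score follows from −log10 q. The −log10 q and p values served to filter and cut lists. Read totals are unknown. Per the labels, replicates are separate samples, and nothing says that they came from separate collections of embryos.

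Merging, summits and positions were computed with pandas 2.3.3 and numpy 2.4.6 under Python 3.11.15, intervals with scipy 1.17.1 and figures with matplotlib 3.10.9, and the steps were checked on simulated data. Fragment counts were searched up to 2000 with a relative tolerance of 0.001 on p, and recovered for 100% of peaks in Jarid2 A, Pcl A and Pcl B. In Jarid2 B, counts are multiples of a scale of 0.24994, within 0.02 of a whole number, in 95.3%. Regions named were the 3 strongest on each arm by mean rank of fold, the 3 closest and 3 farthest strongest summits (taking the joined replicate peak with the highest mean fold), the 3 widest, the 2 extremes of rank difference each way, and the 2 nearest each side of the rule's limit. No test was made. Alternatives were a stricter q, equal list sizes, a longer overlap, wider merging, all sequences, leaving out each library, and pairing by letter. The members, descriptions and alternatives were chosen with earlier results of these data known.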

Additional observations from a re-analysis of the deposited data

How the results depend on the processing

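Of 114 alternatives over 10 results, 88 stayed within 1.5 times a count or within the spread between libraries. The number of regions was 113 with q at or below 1e-05 and 107 with lists of equal size (1055 peaks), and 125 to 205 when 1 library was left out, lowest without Jarid2 A. The number called in every list was 33, 56, and 93 to 153 (highest without Jarid2 B, where 3 lists remain). The distance between summits was 137 bp with the stricter q, 167 bp with equal sizes, 166.5 bp with merging across 1 kb, 193 bp between strongest summits, and, chosen after seeing the data, 73 bp as the nearest over all lists. The share of Jarid2 peaks in members, 20.1% in the main setting, was 14.2%, 15.1%, 26.2% with wider merging, 22.6% on all sequences, 16.6% without the densest window (chosen after seeing the data) and 16.3% to 20.6% without 1 library. The share of Pcl peaks, 10.2%, was 41.6% with wider merging, which joins whole domains, and 5.27% (without Pcl B) to 9.95% (without Jarid2 B) without 1 library, with 5.99% without Jarid2 A and 6.95% without Pcl A. Under a replicate block, in which only lists of the same letter were paired, the Jarid2 share was 18.3% and the distance 129.5 bp. The position moved by less than its spread under all 13 of its alternatives. Except where the setting's construction shows it, the cause was not tested. Unknown depth limits the counts, since a weak site can be missed in a shorter list.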

Other observations

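The recovered background under Pcl peaks was read beside the higher Jarid2 density in the weakest Pcl peaks. The median background was 9.31 fragments in the lowest of the 5 groups by Pcl fold and 7.63 in the next for Pcl A. For Pcl B the medians were 3.45 and 2.78. Of these 2 groups, the one with the higher density thus had the higher background in both Pcl lists. In Pcl A, groups 3 and 4 had lower backgrounds than group 2 (7.08 and 6.77 against 7.63). Their Jarid2 A densities were higher (41.4 and 73.1 per Mb against 28.4). In Pcl B, groups 3 and 4 stood above group 2 in background (3.01 and 2.81 against 2.78) and in Jarid2 A density (65.8 and 107 against 58.7). The part of the background in the density was not tested.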
